A study of Homo sapiens with 2 samples.

Results

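Long noncoding RNA genes were examined on the 2 arrays of a study of beta cells, which make insulin in the pancreatic islet, grown in culture from stem cells. The genes were chosen by the symbol in the array platform's annotation. Symbols that begin with LINC or SNHG and digits, end in -AS1, -AS2 or -IT1, consist of MIR, digits and HG, or are one of *MALAT1*, *NEAT1*, *GAS5*, *DANCR* and *TUG1* were taken where a probe had a single symbol. This gave 559 probes for 466 genes, out of 47323 probes and 20046 named genes on the array. *NEAT1* had no named probe and was not analysed here. The rule reads symbols and no measured values, although it was set with earlier results of these data known. RefSeq classes 458 of them as long noncoding RNA and 4 as antisense RNA, 3 have no class there, and *TUG1* is classed as protein-coding.

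Both samples come from the human embryonic stem cell line HUES8, a single line, differentiated in suspension to stage 6 and sorted for cells positive for NKX6-1 and insulin protein. They are biological replicates of 1 group, with no treatment beyond the differentiation, and no control group was analysed here. The sorted cells had been fixed and stained, and their RNA was recovered by the MARIS procedure, amplified, labelled with biotin and hybridised to Illumina bead arrays. Values are normalized intensities on a linear scale, and a probe was called above background on an array when it passed the 95th percentile of 457 olfactory receptor probes, 18.01 on replicate 1 and 15.9 on replicate 2. A gene counted as above background when one of its probes was so on both arrays, and it is represented by its brightest such probe. Probes differ in how bright they are for a given amount of RNA, so intensities of different genes are not ranked as amounts. There is 1 group, so no conditions were tested against each other.

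Of the sorting markers, *INS* had 16501 on both arrays. *NKX6-1* had 78.9 on replicate 1 and -4.24 on replicate 2, where its single probe was not above background. *GCG*, *SST* and *KRT19*, markers of alpha, delta and duct cells, were above background on both arrays, whereas *PECAM1*, *CDH5* and *PTPRC*, markers of endothelial and blood cells, were not above background on either. Of 3 markers of pluripotent cells, *NANOG* was above background on neither array. *POU5F1* had 18.36 and 10.7, just over the floor of replicate 1 alone. *SOX2* passed on each array at a different probe, with -7.54 on replicate 1 and 74.9 on replicate 2 at the brightest. Of 2 acinar markers, *CPA1* had 22.2 and -4.57 and *PRSS1* was above background on neither array. In a sorted population fewer cells with an RNA and less RNA per cell cannot be told apart, and which of the cells carried a given RNA was not tested.

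Long noncoding RNAs are transcripts with little or no protein-coding potential. Some act in the nucleus on chromatin or in nuclear bodies, others bind microRNAs or proteins in the cytoplasm. Others serve chiefly as precursors: small nucleolar RNAs (snoRNAs), which guide chemical modification of ribosomal RNA, are cut from introns of host transcripts, and many microRNAs are cut from host transcripts of their own. Antisense genes are transcribed from the strand opposite a protein-coding gene, some from a start site that faces its start. Many host genes of snoRNAs belong to the terminal oligopyrimidine class, whose transcripts begin with a C followed by a run of C and T, as those of ribosomal proteins do, and whose translation follows the state of cell growth.

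The start sites of snoRNA host genes are shown first, because they are the class that was detected most completely. Each line gives 30 bases before and 30 bases from the RefSeq transcription start (GRCh38.p14), 5′ to 3′ on the gene's strand, with the run of C and T that begins at the start in capitals. *SNHG12* lies at chr1:28581844-28581903, minus strand, *SNHG32* at chr6:31834886-31834945, plus strand, *SNHG5* at chr6:85678704-85678763, minus strand, *SNHG4* at chr5:139274071-139274130, plus strand, *SNHG7* at chr9:136728155-136728214, minus strand, *SNHG1* at chr11:62855856-62855915, minus strand, and *DANCR* at chr4:52712364-52712423, plus strand.
SNHG12: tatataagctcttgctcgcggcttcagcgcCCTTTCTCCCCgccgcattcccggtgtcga
SNHG32: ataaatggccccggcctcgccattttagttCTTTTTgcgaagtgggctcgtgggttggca
SNHG5: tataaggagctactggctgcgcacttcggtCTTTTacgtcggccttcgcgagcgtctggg
SNHG4: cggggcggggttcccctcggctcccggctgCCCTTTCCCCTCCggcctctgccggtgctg
SNHG7: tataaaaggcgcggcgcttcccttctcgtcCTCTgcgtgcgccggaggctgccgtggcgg
SNHG1: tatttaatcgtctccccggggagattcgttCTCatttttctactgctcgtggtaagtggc
DANCR: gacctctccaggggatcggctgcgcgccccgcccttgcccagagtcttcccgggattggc

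A start with C and at least 4 further bases that are all C or T, read on the gene's strand only, was present at 4 of the 15 snoRNA host genes with a start in the RefSeq table, namely *SNHG4*, *SNHG5*, *SNHG12* and *SNHG32*. The share was 4.04% over all 27305 promoters in the table, 63.5% over 63 ribosomal protein genes and 2.06% over the other 339 long noncoding RNA genes with an entry. *SNHG7* and *SNHG1* have shorter runs, of 4 and 3 bases, and *DANCR* has none at its annotated start. A match describes these letters only, and the RefSeq start may differ from the start used in these cells. Of the 4 genes with such a start, *SNHG5*, *SNHG12* and *SNHG32* were above background on both arrays and *SNHG4* was not.

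Most of the long noncoding RNA genes gave no signal above background on either array. Of 466, 89 (19.1%) were above background on both arrays, against 46.9% of all named genes. The share was 50.9% among RefSeq protein-coding genes, 14.4% among the RefSeq long noncoding RNA genes outside the symbol rule, and 2.08% among the olfactory receptor genes whose probes set the background. A further 15 were above background on replicate 1 only and 53 on replicate 2 only, or 3.22% and 11.4%, against 4.67% and 7.69% of all named genes. Another 2 passed on each array at a different probe, and 307 passed on neither.

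Detection is given by class. Among the 18 genes grouped as snoRNA hosts (16 SNHG genes, *GAS5* and *DANCR*), 12 (66.7%) were above background on both arrays. The counts were 40 of 178 antisense genes (22.5%), 33 of 251 LINC genes (13.1%), 2 of 9 microRNA host genes and 1 of 8 intronic transcripts. *TUG1* was above background and *MALAT1* was not. These shares describe the probes on 2 arrays, and no test of a difference between classes was made.

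**Figure D1:**
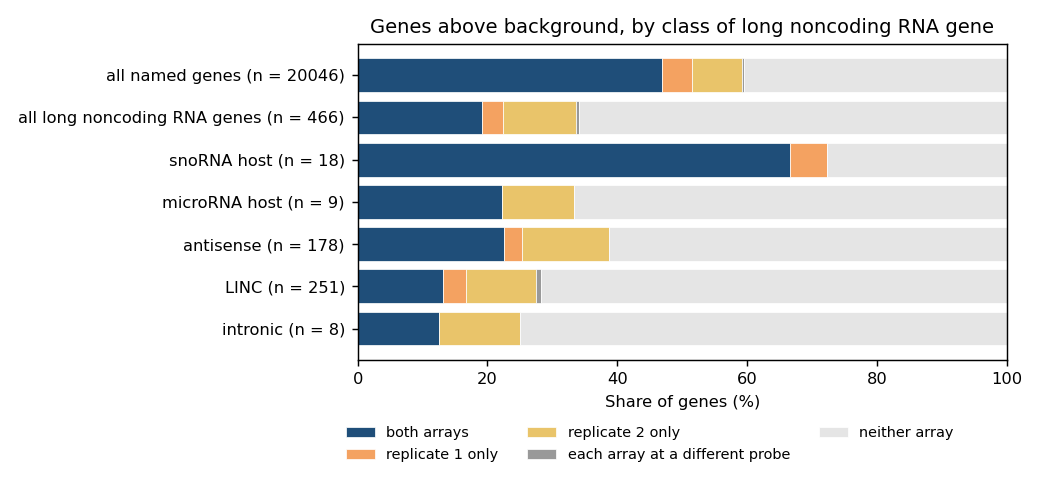
Share of genes (x axis, percent) above background on both arrays, on replicate 1 only, on replicate 2 only, on each array at a different probe, or on neither, for all named genes and for the classes of long noncoding RNA genes, with the number of genes in brackets. The snoRNA host genes have the longest dark bar, 66.7% above background on both arrays, and the LINC genes 13.1%.

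Most snoRNA host genes were well above the floors on both arrays, and 11 of the 12 detected differed by less than 2-fold between them. The other 1 of the 12, 8.33%, was 2-fold or more apart, against 24.5% of all named genes above background. *SNHG32*, whose span holds *SNORD48* and *SNORD52*, had 3722 on replicate 1 and 3520 on replicate 2, while a second probe of the gene was not above background on either array, with 17 and 0.769. *SNHG5*, the host of *SNORD50A* and *SNORD50B*, had 1836 and 2395. Its other probe had 1185 and 1875, so both probes were higher on replicate 2. *SNHG6* had 993 and 1179. *DANCR*, host of *SNORA26* and known as an RNA that holds progenitor cells back from differentiation, had 909 and 1130. *SNHG8*, host of *SNORA24*, had 809 and 958. For each of these genes the replicates lay close together, and replicate 2 was the higher for all but *SNHG32*.

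*SNHG1*, which holds 8 annotated snoRNA genes, had 547 and 634. *SNHG15* had 293 and 367 at one probe and 237 and 276 at the other. *SNHG9* had 186 and 184. These genes too differed by less than 2-fold. *SNHG17*, with 4 snoRNA genes of the SNORA71 family inside, had 165 and 199, and *SNHG11* had 143 and 104. *SNHG12*, with its long pyrimidine run at the start, had 53.9 and 67.7.

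*SNHG7* was the exception among the detected snoRNA hosts in its difference between replicates. Its 3 probes had 323 and 144, 147 and 88.5, and 57.3 and 48.2, all lower on replicate 2. At the brightest the difference was -1.16 on the log2 scale, 2.23-fold, and the others gave -0.73 and -0.25. Without *SNHG7*, no detected snoRNA host was 2-fold or more apart.

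The hosts that were not detected include well known genes. *GAS5*, an RNA that accumulates in growth-arrested cells and holds 11 snoRNA genes in RefSeq, had 4.94 and 1.15 at its single probe. *SNHG3* had 4.72 and 10.2, *SNHG4* 8.39 and 1.80, *SNHG20* 2.40 and -3.67 and *SNHG28* 1.08 and 13.1. *SNHG10* passed the floor of replicate 1 alone, with 40.9 and -19.5, at least 2.58-fold lower on replicate 2 against the floor of that array. A single probe per gene stands behind each of these 6 values.

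RefSeq spans show which of the genes hold a snoRNA gene. Of 17 long noncoding RNA genes with a named snoRNA gene inside, 14 (82.4%) were above background, and of 446 without one, 74 (16.6%). Since 15 of the 17 are SNHG genes, *GAS5* or *DANCR*, this count largely restates that of the class. The other 2 were both detected: *EPB41L4A-AS1*, host of *SNORA13*, with 1282 and 1407, and *STX18-AS1*, with *SNORD162* inside, with 38 and 40.3. The strand of the snoRNA genes was not used.

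The listed proteins that package snoRNAs were detected without exception. All 8 core proteins listed, of both the C/D and the H/ACA type of snoRNA particle, were above background on both arrays. The share over all RefSeq protein-coding genes was 50.9%. The methyltransferase *FBL* had 757 and 560, the C/D proteins *NOP56* 474 and 473 and *NOP58* 217 and 393, and the pseudouridine synthase *DKC1* 690 and 805. *NHP2*, an H/ACA protein, had 793 and 138, the only one 2-fold or more apart.

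**Figure D2:**
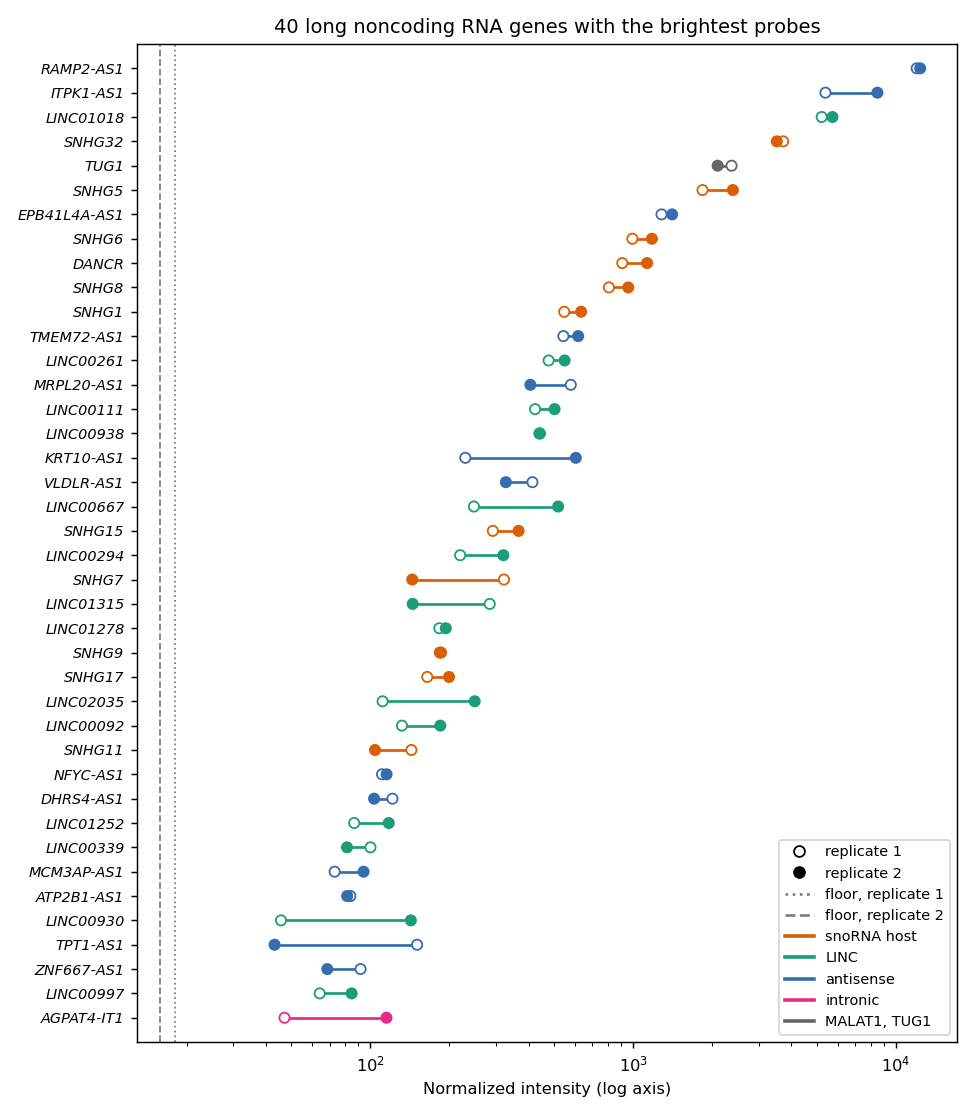
Normalized intensity (x axis, log scale) of the 40 long noncoding RNA genes above background on both arrays with the highest mean log2 intensity, 1 gene per line, with replicate 1 as an open and replicate 2 as a filled circle, coloured by class, and the background floors as vertical lines. Most pairs lie close together, while *SNHG7*, *KRT10-AS1*, *LINC00667*, *LINC00930*, *LINC02035* and *TPT1-AS1* are among those spread more widely.

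Among the RNAs named for a function of their own, *TUG1*, which was first described in mouse retina and has been linked to chromatin silencing, had 2368 and 2096. *MALAT1*, an RNA of nuclear speckles that most cells express, had -6.92 and 0.342 at its single probe, not above background on either array. Proteins of paraspeckles, the nuclear bodies that form on *NEAT1*, were above background for all 8 measured of 9 listed, against 50.9% of protein-coding genes. *NONO* had 2062 and 2715, *SFPQ* 97.6 and 193 and *PSPC1* 85.7 and 152. *OIP5-AS1*, known from zebrafish and mouse studies for a site that binds the islet microRNA miR-7, had 24.6 and 45.5.

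Of the antisense genes, 3 had intensities over 1000 on both arrays. *RAMP2-AS1* had 11980 and 12354, the same within 1.03-fold. Its partner *RAMP2*, which encodes a subunit of the adrenomedullin receptor, was also above background, with 36.3 and 46.3. *ITPK1-AS1* had 5388 and 8496, 1.58-fold higher on replicate 2. Its partner *ITPK1*, an inositol phosphate kinase, had 283 and 162, the opposite direction. *EPB41L4A-AS1*, described above, was the third, and *EPB41L4A*, which encodes a cytoskeletal protein, had 30.1 and 16.4. All 3 are read by a single probe.

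At lower intensity, *TMEM72-AS1* had 543 and 618 while *TMEM72* was not above background on either array (3.96 and -1.78). *MRPL20-AS1* had 579 and 406, and *MRPL20*, a mitochondrial ribosomal protein gene, 471 and 84.9. *VLDLR-AS1* had 414 and 328, and *VLDLR*, a lipoprotein receptor gene, 867 and 401. In the last pairs both partners were lower on replicate 2. *NFYC-AS1* had 111 and 115, *DHRS4-AS1* 121 and 103 at one probe and 49.6 and 66.5 at the other, and *ATP2B1-AS1*, antisense to a plasma membrane calcium pump, 84.0 and 81.7.

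In some pairs only one partner was above background, and in others both were. *MAFA-AS1* had 45.7 and 53.7, both above background, whereas *MAFA*, whose product activates the insulin gene in adult islets, had 3.46 and 1.34 and was above background on neither array. *ZEB1-AS1* had 48.9 and 48.2, with a second probe at 6.00 and 18.4, while *ZEB1*, a repressor of epithelial genes, had -11.5 and -8.80. *ID2-AS1* had 19.5 and 18.2, just over the floors, while *ID2*, an inhibitor of DNA-binding factors, had 587 and 1745. In the other direction, and named after their values were seen, *GNAS-AS1* was not detected (5.45 and 2.5) although *GNAS*, which encodes a stimulatory G protein subunit, had 11533 and 13742. *ENO1-AS1*, whose partner is a glycolytic enzyme gene at 3079 and 3286, reached the floor on replicate 2 only (10.6 and 19.5).

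For 178 of 186 antisense and intronic genes the partner named in the symbol had a probe. Of the 100 with a partner above background, 30 (30%) were themselves above background, and of the 78 with a partner that was not, 11 (14.1%). Seen from the other side, the partner was above background for 30 of 41 detected genes (73.2%) and for 70 of 137 not detected (51.1%). The share was 46.9% over all named genes and 50.9% over RefSeq protein-coding genes. In the 30 pairs with both above background, the replicate difference had the same sign in 17. Whether a probe reads only its own strand was not tested.

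RefSeq start sites divided these pairs further. In 43 pairs the starts lay within 1000 bases of each other on opposite strands, and 15 (34.9%) of those long noncoding RNA genes were above background. In 69 pairs on opposite strands with starts farther apart, 18 (26.1%) were. With the partner above background the counts were 13 of 27 (48.1%) for close starts and 11 of 38 (28.9%) for distant ones. Among the close pairs were *VLDLR-AS1*, *ATP2B1-AS1*, *ZNF667-AS1*, *ZNF606-AS1* and *TPT1-AS1*. No start was listed for at least one partner in 63 pairs.

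Detected genes had more CpG dinucleotides, the sites of DNA methylation, at their promoters. The window of 250 bases before to 50 after the start was in the table for 354 of the 466 genes. It held a median of 23 CpG dinucleotides in the 73 detected genes and 7 in the 281 others, with a GC content of 62.3% and 53.0%. Of the genes with 20 or more CpGs, 39 of 115 (33.9%) were above background, and of those with fewer than 10, 24 of 188 (12.8%). For the other named genes the shares were 65.9% and 21.3%, a rise in both sets.

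**Figure D3:**
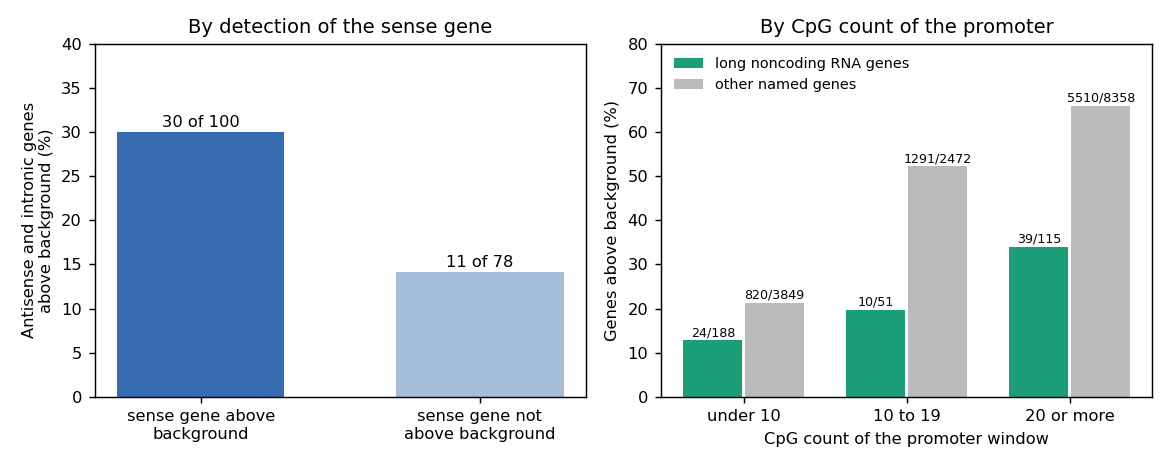
Left, share of antisense and intronic genes above background on both arrays (y axis, percent) where the partner named in the symbol was or was not above background, 30 of 100 against 11 of 78. Right, share of genes above background (y axis, percent) by CpG count of the promoter window (x axis) for long noncoding RNA genes and for other named genes, with counts above the bars, which rise from left to right in both sets.

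The LINC genes were mostly at background, with 1 at high intensity. *LINC01018*, an RNA known from liver, had 5216 and 5730 at one probe and 195 and 200 at the other, which differ in brightness but not in direction. *LINC00261*, which lies beside the endoderm factor gene *FOXA2* and is known to be expressed with it in endoderm, had 477 and 549 at one probe and 284 and 254 at the other. *FOXA2* had 2722 and 2777. This and the other neighbours of LINC genes were named after their values were seen. Both genes were thus detected and level between the replicates.

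The RefSeq promoter of *LINC00261* (GRCh38.p14, chr20:22578593-22578892, minus strand) is printed because its neighbour encodes a forkhead factor. Capitals mark the 1 match to TGTTTAC, a forkhead motif, searched on both strands and found here as its reverse complement.
LINC00261: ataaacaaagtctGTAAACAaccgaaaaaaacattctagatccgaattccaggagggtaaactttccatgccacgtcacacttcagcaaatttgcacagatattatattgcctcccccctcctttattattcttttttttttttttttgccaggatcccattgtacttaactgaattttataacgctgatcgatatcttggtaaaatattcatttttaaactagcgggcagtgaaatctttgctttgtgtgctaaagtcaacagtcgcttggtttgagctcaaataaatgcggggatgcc

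The motif was present in 3.41% of all promoters in the table, in 3 of 73 detected long noncoding RNA genes (4.11%) and in 12 of 281 not detected (4.27%), so its frequency was near the overall one in both. With 8 CpGs and 37.0% GC, this promoter is poorer in both than the median detected gene. The match is a description of letters, and binding was not measured.

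Other LINC genes above background included *LINC00111* with 424 and 503 at one of its 2 probes, *LINC00938* with 440 and 442, *LINC00294* with 220 and 321, *LINC01278* with 183 and 194, and *LINC00092* with 132 and 185. *LINC00938* repeated within 1.005-fold. *LINC00543*, next to the intestinal factor gene *CDX2*, had 45.4 and 72.0, and *CDX2* 93.2 and 149. *LINC01512*, next to *VEGFA*, which encodes an angiogenic growth factor, had 35.7 and 25, and *VEGFA* 601 and 753. Over the class, the nearest protein-coding gene by RefSeq spans was above background for 22 of 30 detected LINC genes with a measured neighbour (73.3%) and for 102 of 188 others (54.3%), where the share over all RefSeq protein-coding genes was 50.9%.

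MicroRNA host genes were detected in 2 of 9 cases. *MIR503HG* had 69.6 and 74.1, and *MIR1915HG* 34.9 and 69.9, 2.00-fold higher on replicate 2. *MIR17HG*, the host of the growth-promoting miR-17 cluster, had -1.40 and 6.83, and *MIR155HG*, the host of the immune microRNA miR-155, 2.93 and -8.59. *MIR205HG*, *MIR3142HG*, *MIR4453HG* and *MIR924HG* were above background on neither array, with values between -12.6 and 12.9. *MIR100HG* reached 17 on replicate 2 only. The microRNAs themselves were not measured.

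One mature microRNA of each detected host is printed, with a pair from the undetected *MIR17HG* for comparison. All are from RefSeq (GRCh38.p14), 5′ to 3′, at chrX:134546371-134546393, minus strand, chr10:21496576-21496595, minus strand, chr13:91350618-91350640, plus strand, and chr13:91351072-91351094, plus strand, with the seed, bases 2 to 8, in capitals. The seeds of the detected hosts' microRNAs differ from each other, while miR-17-5p and miR-20a-5p share theirs.
miR-503-5p: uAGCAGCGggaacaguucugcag
miR-1915-3p: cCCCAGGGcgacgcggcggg
miR-17-5p: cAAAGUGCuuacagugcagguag
miR-20a-5p: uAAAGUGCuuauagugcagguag

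Of the genes that make and use microRNAs, 10 of 11 listed were above background on both arrays, against 50.9% of RefSeq protein-coding genes. The nuclease *DROSHA* had 247 and 342, *DICER1* 388 and 364, and the export factor *XPO5* 176 and 182. *AGO2*, which holds the microRNA and can cut its target, had 404 and 186, and *TNRC6B*, a silencing partner, 358 and 153, the 2 genes of the list 2-fold or more apart. *AGO4* was above background on replicate 2 only. Of 5 measured nonsense-mediated decay factors, which degrade many spliced snoRNA host transcripts, 4 were above background, beside the same share of 50.9%. *UPF1*, the central helicase, had 214 and 24.1, and *UPF2* 305 and 571.

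The replicates were set against each other for the 89 detected genes. The median log2 difference, replicate 2 minus replicate 1, was 0.23, against 0.21 over all named genes above background. Of the 89, 61 (68.5%) were higher on replicate 2 and 28 lower, against 60.9% higher over all named genes above background. A difference of 2-fold or more was seen in 14 (15.7%), against 24.5% of all named genes, 12 of them higher on replicate 2 (13.5% of all named genes) and 2 lower (10.9%). With each array centred on the median of its probes above background the split was 8 higher and 4 lower, and with an offset of 50 before the logarithm 2 higher and 1 lower. The snoRNA hosts had a median of 0.25 with quartiles at -0.03 and 0.32, the LINC genes 0.23 and the antisense genes 0.19. The 70 detected ribosomal protein genes had -0.13, with 28 (40%) higher and 42 lower. Markers of other cells differed between the replicates in part. Of the duct genes, *CFTR* had 29.3 and 216 and *KRT19* 1022 and 926. Of the mesenchyme genes, *COL3A1* had 12.3 and 76.6 and *COL1A1* 18.8 and 20.1. Of the proliferation genes, *TOP2A* had -2.05 and 85.4 and *MKI67* was above background on neither array. The part of these cells in the differences was not tested. No difference here can be checked on a further array, and 53 of the 89 genes had intensities under 100 on both arrays.

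**Figure D4:**
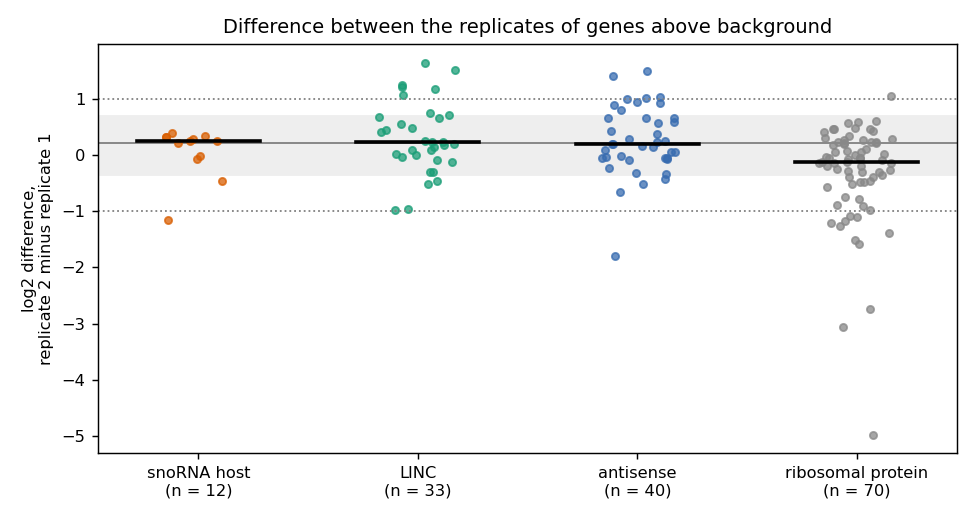
Log2 difference between the replicates (y axis, replicate 2 minus replicate 1) of genes above background on both arrays, 1 point per gene, for snoRNA host, LINC, antisense and ribosomal protein genes, with the median as a black bar, the quartiles of all named genes as a grey band and 2-fold as dotted lines. The medians are 0.25, 0.23, 0.19 and -0.13, and *SNHG7* lies alone below the other snoRNA hosts.

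The 8 genes farthest apart in each direction included dim and bright members. Higher on replicate 2 were *LINC00930* (45.8 and 142.7, 3.12-fold), *LINC00623* (30.4 and 86.1, with its other probes not above background) and *PRKCQ-AS1* (30.8 and 86.8). Next came *KRT10-AS1* (230 and 605, with its other probe not above background), *AGPAT4-IT1* (47.2 and 115), *LINC00636* (21.0 and 49.8), *LINC01686* (29.4 and 67.7) and *LINC02035* (111 and 250). *AGPAT4-IT1* was higher at both of its probes, with log2 differences of 1.29 and 0.81. The other probe of *PRKCQ-AS1* passed on replicate 2 only (10.2 and 34.5), and that of *LINC01686* on neither array (2.40 and 9.16). The partner or nearest coding gene was higher on replicate 2 for 6 of these 8 genes, against 60.9% of all named genes above background. *PRKCQ*, a protein kinase C gene, had 38.8 and 96.2, *KRT10*, a keratin gene, 440 and 587, and *AGPAT4*, an acyltransferase gene, 185 and 355. *SLC49A4*, the neighbour of *LINC02035*, had 177 and 545, *BBX*, the neighbour of *LINC00636*, 111 and 234, and *PPIAL4A*, the neighbour of *LINC00623*, 3542 and 4347. The other 2 were lower on replicate 2: *RGS16*, the neighbour of *LINC01686*, had 190 and 106, and *FAM174B*, the neighbour of *LINC00930*, 596 and 555.

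Lower on replicate 2 were *TPT1-AS1* (151 and 43.2, 3.49-fold) and *SNHG7*, followed by *LINC01315* (285 and 145), *LINC01089* (33.4 and 17.2), *HDHD5-AS1* (73.0 and 46.5), *LINC01512*, *MRPL20-AS1* and *LINC01766* (30.3 and 21.9). *TPT1*, the partner of *TPT1-AS1* and itself a terminal oligopyrimidine gene, had 8721 and 14279, the opposite direction. *SETD1B*, the neighbour of *LINC01089*, had 34.9 and 70.3, and *VEGFA*, the neighbour of *LINC01512*, was also higher on replicate 2. Lower on replicate 2 with their antisense genes were *HDHD5* (764 and 390) and *MRPL20*. *NFAM1*, the neighbour of *LINC01315*, was above background on neither array, and that of *LINC01766* had no named probe. The other probe of *HDHD5-AS1* was not above background on either array (7.92 and 2.29). *LINC01089* was lower at each of its 3 probes, the third with 60.4 and 7.71. *LINC00339* was lower at 3 of 3 probes as well, with log2 differences between -1.33 and -0.30. Of the 10 genes with more than 1 probe above background, 3 had probes that differed in sign and none had every probe 2-fold or more apart.

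Genes above background on 1 array only had at most 63.6 there. The brightest on replicate 2 only were *DLG5-AS1* (11.7 and 63.6, at least 3.53-fold higher), *UBE2D3-AS1* (17.6 and 51.5), *LINC00597* (-0.749 and 49.2) and *TAPT1-AS1* (7.81 and 45.3). On replicate 1 only they were *LINC01567* (49.0 and 7.35, at least 3.09-fold lower), *SNHG10*, *DLGAP4-AS1* (37.4 and 3.49) and *LINC02593* (36.2 and 5.22).

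Long noncoding RNAs known by other names gave 9 detected of 24 measured, from a list of 34. This is 37.5%, against 46.9% of all named genes and 14.4% of RefSeq long noncoding RNA genes outside the symbol rule. *ZFAS1*, a snoRNA host, had 1763 and 1906 at the 1 of its 2 probes above background. *MIAT*, known from neurons and retina, had 1161 and 346, 3.36-fold lower on replicate 2. *MEG3*, a maternally expressed imprinted RNA known from human beta cells, had 210 and 23.1, 9.08-fold lower on replicate 2. That is at 1 of its 2 probes, with the other not above background on both arrays. The value on replicate 2 is not far over the floor of 15.9. *KCNQ1OT1*, an imprinted antisense RNA, had 188 and 214. *H19*, another imprinted RNA, had 0.843 and -4.56 and *HOTAIR* -8.44 and -7.42, and neither was above background.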

How the data were processed

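RNA from 2 samples was measured on Illumina bead arrays. The deposited intensity values are linear, 1 per probe and sample, made with GenomeStudio per the submitters' processing notes; its version is not given in the sources used here. Per the series' design text the arrays were normalized together with published arrays, which are not analysed here, so each value also depends on those. The sorted values of both arrays differ by at most 0.155, as quantile normalization gives, and 28.0% and 28.1% of values are at or below 0. Probe names came from the platform annotation (30113 probes with 1 gene, 8 with several, 17202 not listed), and sequences, start sites and classes from RefSeq GRCh38.p14. Log2 differences were computed only for probes above the floor on both arrays, with no offset, and no further normalization or background correction was applied. By the naming rule, any member above background on both arrays could be named, every SNHG, microRNA host and singly listed gene was eligible whether detected or not, and so were the 8 members farthest apart in each direction, the 8 brightest on 1 array only, partners of named antisense genes and the listed genes. The members, lists and rules were chosen with earlier results of these data known. Alternatives changed the floor, the probe taken per gene, the symbols, the offset, the centring, the quantile step and the arrays used. The number of arrays limits the precision. The computation was tested on simulated data and used Python 3.11.15, numpy 2.4.6, pandas 2.3.3 and matplotlib 3.10.9.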

Additional observations from a re-analysis of the deposited data

How the results depend on the processing

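With the floor at the 99th percentile of the olfactory receptor probes, 57 long noncoding RNA genes were above background in place of 89 (12.2%, against 40.6% of all named genes), 9 in place of 14 were 2-fold or more apart, and 18 in place of 30 pairs had both partners above background. Detection on a single array, leaving out replicate 2, gave 106 genes (22.7%, against 51.8% of all named genes) and 36 pairs. Leaving out replicate 1 gave 144 genes (30.9%, against 54.8% of all named genes) and 47 pairs. An offset of 50 before the logarithm left 3 genes 2-fold or more apart. The median replicate difference lay between 0.13 and 0.23 under the alternatives that gave one. Centring the arrays left 12 genes 2-fold or more apart and moved the split from 12 higher and 2 lower to 8 and 4. Other floors, the median probe in place of the brightest, updated symbols, a repeated quantile step and, chosen after seeing the data, microRNA hosts with a hyphen or letter in the symbol stayed within 1.5 times of the counts given. No paired analysis was possible because there is 1 group. Signal near the floor limits the dim genes: 53 of 89 detected had under 100 on both arrays.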

Other observations

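MicroRNA host genes whose symbols carry a hyphen or letter fall outside the symbol rule. Of 8 such genes with 13 probes, 1 was above background on both arrays. This was *MIR124-1HG*, a host of the neuronal microRNA miR-124, with 78.0 on replicate 1 and 168 on replicate 2 at one probe and 42.6 and 99.3 at the other. Both probes were higher on replicate 2, by 1.11 and 1.22 on the log2 scale. *MIR124-2HG* had 6.83 and 44.3 at 1 of its 3 probes, above background on replicate 2 only.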
